A study of Mus musculus with 4 samples.

Results

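Classical monocytes of the mouse lung were examined at single-cell resolution. They were selected on their own UMI counts (a UMI, unique molecular identifier, stands for 1 captured RNA molecule), as the cells with at least 1 Csf1r UMI, at least 2 of the 4 markers Ccr2, F13a1, Ly6c2 and Vcan detected, at most 1 of Cd300e, Eno3, Adgre4 and Treml4, at most 1 of Ear1, Marco, Plet1 and Krt79, fewer than 10 summed UMIs of C1qa, C1qb and C1qc, and 0 UMIs of Flt3, Cd3e, Cd79a and Cdh5. The rule found 57 of 9363 cells, or 0.609% of the data set. Whole lungs of 4 mice were sequenced, 1 library per mouse. The 2 libraries labelled WT came from ERG fl/fl mice, in which both Erg alleles are flanked by loxP sites and no Cre is named, and the 2 libraries labelled ERG CKO came from CDH5-CreER(T):ERG fl/fl mice, in which a tamoxifen-dependent Cre is driven by the promoter of the endothelial gene Cdh5. All 4 mice received 5 daily injections of 0.5 mg tamoxifen, and lungs were taken 90 days later; the age of the mice is not given in the sources used here. The WT libraries held 13 and 22 classical monocytes (replicates 1 and 2) and the libraries labelled ERG CKO held 11 and 11.

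Classical monocytes leave the bone marrow through the chemokine receptor CCR2, circulate with high surface Ly6C, and enter tissues, where they can become macrophages or dendritic-like cells. Non-classical monocytes, which depend on the nuclear receptor NR4A1 and patrol the endothelium, descend from them and carry little CCR2 or Ly6C. In the lung both kinds are found in the capillary bed as well as in the tissue, so a whole-lung suspension mixes blood and tissue cells.

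Erg, the targeted gene, encodes an endothelial transcription factor of the ETS family, and the rule removed cells with a Cdh5 UMI. Erg had 0, 1, 0 and 0 UMIs in the classical monocytes of WT replicates 1 and 2 and ERG CKO replicates 1 and 2, where 3 UMIs would correspond to 12.1 to 23.9 CPM (UMIs of the gene per 1000000 UMIs of the summed cells). In cells with a Cdh5 UMI, Erg stood at 86.4 and 75.5 CPM in WT and at 92.4 and 73.9 CPM in the libraries labelled ERG CKO. Erg counts did not separate the groups, and counts per gene cannot show whether the floxed exons were lost, so every direction below is between libraries as labelled.

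The rule fixed the levels of its own genes, which are given as a description. Ccr2, the receptor for CCL2, was detected in 57 of the 57 cells, F13a1 (coagulation factor XIII subunit A) in 56, Ly6c2 in 54 and Vcan (the proteoglycan versican) in 30. Of the cells, 29 had all 4 markers, 25 had 3 and 3 had 2. Ly6c2 was at 1707 and 1492 CPM in WT and at 1550 and 1328 CPM in ERG CKO, and Ccr2 at 620 and 1173 CPM against 739 and 1169 CPM, so both groups carried the defining markers and their libraries overlapped. Of the non-classical markers, Cd300e and Eno3 had no UMI in any member, and 31 members had 1 of the other markers.

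Genes outside the rule went with the label. Lyz2, which encodes the antibacterial enzyme lysozyme M, was at 34399 and 45991 CPM in WT and 37143 and 44699 CPM in ERG CKO, against a mean of 12471 CPM in non-classical monocytes and 10695 CPM in interstitial macrophages (cells with at least 10 C1q UMIs). For reference, 502 cells met the rule for non-classical monocytes (at least 2 of Cd300e, Eno3, Adgre4 and Treml4 and at most 1 of the classical markers), 45 carried at least 2 markers of both kinds, and 56 were interstitial macrophages. Among 16 classical monocyte genes that the rule did not use, 11 had a mean level at least 1 log2 unit above that of non-classical monocytes (10 CPM added) and 0 lay as far below, whereas all 14 genes of a non-classical list lay at least 1 log2 unit below. Both statements compare classes that the rule itself defined, so no test was applied. The 2 classes differed widely, since of 3249 genes at 50 CPM or more in either class 235 lay at least 1 log2 unit higher in classical and 438 in non-classical monocytes.

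**Figure D1:**
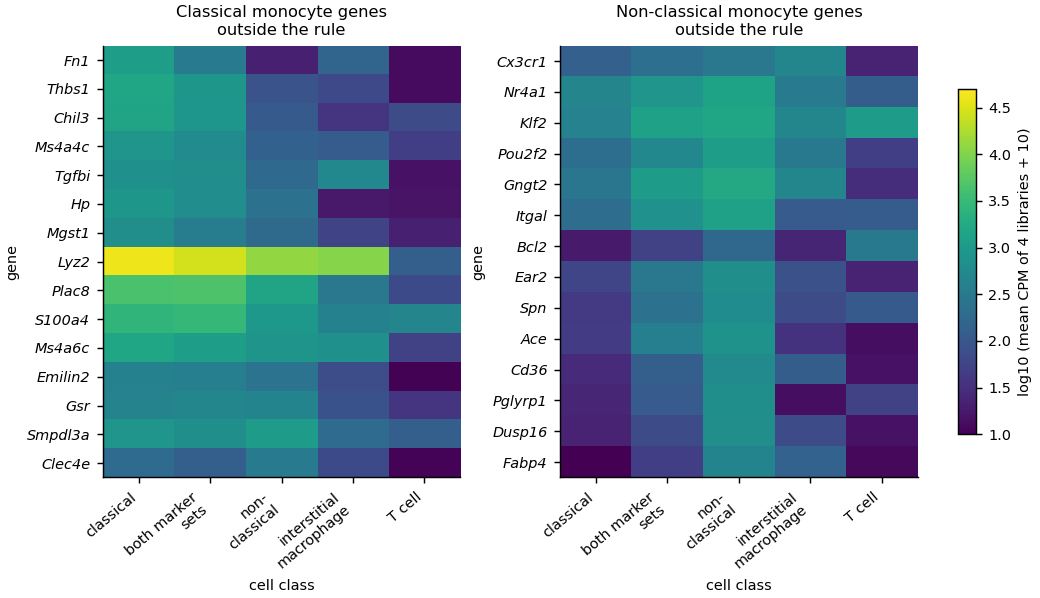
Mean level of 15 classical and 14 non-classical monocyte genes (rows) in 5 cell classes (columns), coloured by log10 of the mean CPM of 4 libraries plus 10. Classical monocytes are bright for Lyz2, Plac8 and S100a4 and dark for Fabp4, Dusp16 and Pglyrp1, and cells with both marker sets lie between the 2 monocyte classes for most genes.

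Single genes are given as examples chosen after their values were seen. Of 20 fibrogenic and matrix mediators, 10 were at least 1 log2 unit higher than in non-classical monocytes and 2 as much lower. Fn1 (fibronectin) was at 1127 and 1088 CPM in WT and 1392 and 1130 CPM in ERG CKO, against 10.9 CPM in non-classical monocytes. Thbs1, which encodes thrombospondin 1, averaged 1521 CPM against 78.3 CPM, and Tgfbi, an adhesive matrix protein induced by TGF-β, averaged 701 CPM against 173 CPM. Other genes encode secreted or antimicrobial products. Chil3 (the chitinase-like protein Ym1) averaged 1461 CPM against 101 CPM, Hp (the haemoglobin-binding protein haptoglobin) 904 CPM against 237 CPM, and Plac8 4324 CPM against 1458 CPM. The 10 genes with the highest ratio to non-classical monocytes were the 4 markers, Chil3, Fn1, Capg, Mgp, Thbs1 and Wfdc17, and of these Mgp rested on 1 cell (described below). The genes with the highest ratio to interstitial macrophages included Ly6c2, Vcan, Slpi, Chil3, Thbs1, Hp, Ifitm6, Plac8 and AI839979.

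Of 21 pattern recognition and Fc receptors, 5 were at least 1 log2 unit higher in classical and 5 in non-classical monocytes. Ccr1, a receptor for inflammatory CC chemokines, averaged 155 CPM against 7.80 CPM in non-classical monocytes, and Cd14, the co-receptor for bacterial lipopolysaccharide, 3478 CPM against 443 CPM. Cx3cr1, the fractalkine receptor, averaged 124 CPM against 297 CPM, and Fcgr4, an activating Fc receptor, 16.2 CPM against 634 CPM. Among 24 interferon-stimulated genes, 12 were at least 1 log2 unit higher in classical monocytes and 0 as much lower, with Ifi27l2a at 2483 CPM against 533 CPM and Bst2, which tethers budding virions, at 371 CPM against 78.0 CPM. Of 7 MHC class II genes, 2 were at least 1 log2 unit higher in classical than in non-classical monocytes (H2-DMa and H2-DMb1, which load peptides) and 1 as much lower (H2-Eb1). H2-Ab1 averaged 290 CPM against 536 CPM in non-classical monocytes, 1521 CPM in cells with both marker sets and 10678 CPM in interstitial macrophages.

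Of the 22 transcription factors listed for monocytes, 21 were in the matrix and each had a UMI in the class. Cebpb, a C/EBP factor of myeloid cells, averaged 3423 CPM and did not set the classes apart (3584 CPM in non-classical monocytes). Nr4a1 averaged 468 CPM against 1385 CPM and Klf2, a quiescence and trafficking factor, 420 CPM against 1508 CPM. Ets1 and Id2 were also low, at 6.14 CPM against 110 CPM and 119 CPM against 620 CPM. The ERG relative Fli1 was at 74.1 CPM against 78.3 CPM.

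Of 17 neutrophil and granule genes, 11 had a UMI in these cells and 3 reached 50 CPM. Levels in neutrophils were not compared. The neutrophil alarmins S100a8 and S100a9 averaged 6.99 and 10.7 CPM, and S100a9 had 6 UMIs in all, 1 in each of 6 cells. Ly6g, Ngp, Ltf and Elane had no UMI in any member. Cd177 and Mmp8, which neutrophils also make, were nevertheless present at 117 and 94.6 CPM, and were detected in 57.9% and 43.9% of the cells, against 1.77 and 4.42 CPM in non-classical monocytes. Prtn3 (proteinase 3), a granule protease of bone marrow progenitors, was detected in 28.1% of the cells at 39.2 CPM, and Mpo, of the same progenitor programme, in 1.75%.

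Other cell types left few traces in the summed cells. All 5 T cell markers were at 0, and the NK cell, dendritic cell and mast cell lists summed to at most 15.9, 23.9 and 7.18 CPM in any library. Endothelial markers summed to 15.9 to 86.7 CPM, where T cells, which should lack them, held 77.9 to 121 CPM. Epithelial markers summed to 39.8 to 167 CPM and B cell markers to 86.1 to 173 CPM. Fibroblast markers were at 400 CPM in WT replicate 1 and at 0 in the other libraries, all from 1 cell that Scrublet called a doublet. Platelet markers were uneven between the groups and are described with the genes they moved with.

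The edge of the rule was examined without a test. With 1 of the 4 markers, 16 further cells would have passed, and these had a median Lyz2 level of 2473 CPM against 41830 CPM in the members. With none of the 4, 98 cells would have passed, of which 66 had an S100a9 UMI. A further 62 cells were left out because Csf1r was at 0, and 60 of these had a UMI of Nkg7, a granule gene of cytotoxic lymphocytes. The 40 cells left out for a UMI of Flt3, Cd3e, Cd79a or Cdh5 were different. Their median Lyz2 level was 36100 CPM, 33 of 40 had a Fn1 UMI, 30 had a Flt3 UMI and 10 a Cdh5 UMI, so most carried the leading genes of the members. They were spread over the libraries as 13, 11, 9 and 7 cells. The share of all cells, the gene tests and the interaction with non-classical monocytes were also computed with them. Members were deep cells, with medians of 10556 to 13250 UMIs per library against 5573 to 6352 in non-classical monocytes, and the rule needs several detected genes. After every cell was thinned to 1000 UMIs only 15 cells still met it. No member shared its barcode with a cell of another library, and 2 members had over 10% mitochondrial UMIs (31.4% and 38.0%).

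The first question was whether classical monocytes took a different share of the suspension when the endothelial Cre was present. In WT replicates 1 and 2 their share of all cells was 0.574% (Wilson 95% bounds 0.336 and 0.980) and 1.02% (bounds 0.677 and 1.54), and in those labelled ERG CKO it was 0.355% (bounds 0.198 and 0.635) and 0.594% (bounds 0.332 and 1.06). The groups overlapped, because ERG CKO replicate 2 lay just above WT replicate 1. WT averaged 0.799% ± 0.318 and ERG CKO 0.475% ± 0.169 (SD, n = 2 mice each), which leaves -0.324 points between them. A two-sided exact permutation test of this gave p = 0.667. The labels number 2 mice per group, and this test cannot go below 0.333. These intervals cover counting error only, and a smaller share of all cells cannot be told apart from more cells of other kinds in the suspension.

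Set against the other monocytes the shares were further apart. Classical monocytes were 16.7% and 13.1% of classical and non-classical monocytes together in WT and 5.64% and 9.32% in ERG CKO, from 13 of 78, 22 of 168, 11 of 195 and 11 of 118 cells. Both libraries labelled ERG CKO lay below both WT libraries, and the exact permutation p was 0.333, the smallest possible. This denominator was chosen after the data were seen. Non-classical monocytes took a share of 2.87% and 6.79% in the WT libraries, against 5.94% and 5.78%, so WT replicate 1 held few of them. Both ERG CKO libraries were also below both WT libraries among cells with a UMI of the leukocyte gene Ptprc (1.12% and 2.08% against 0.746% and 1.10%), when the rule was applied after thinning (0.240% and 0.247% against 0.113% and 0.120%, 15 cells) and when the 40 cells with Flt3, Cd3e, Cd79a or Cdh5 UMIs were kept (1.15% and 1.53% against 0.646% and 0.972%, 97 cells). Each of these had the same exact permutation p of 0.333. Under the strict rule (at least 3 markers, no non-classical marker, fewer than 3 C1q UMIs, 24 cells) the shares overlapped, at 0.0883% and 0.512% against 0.161% and 0.324%.

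**Figure D2:**
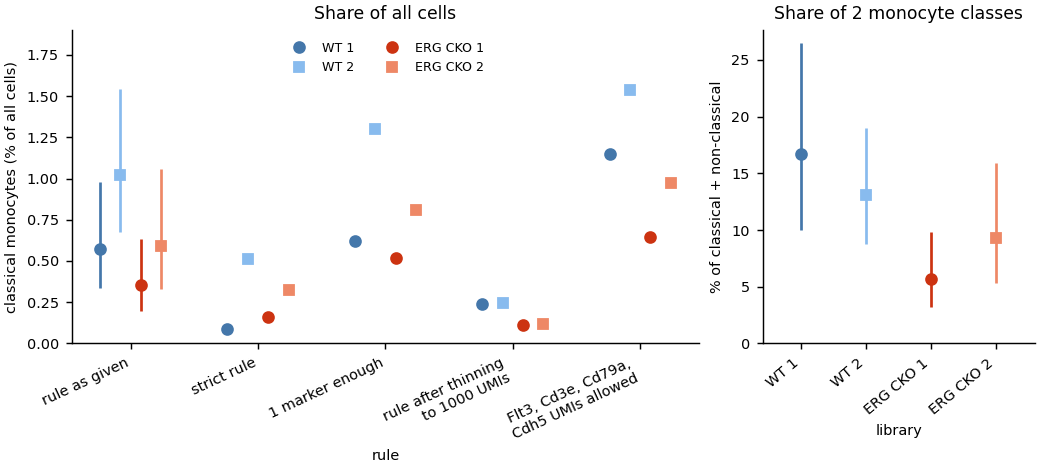
Share of classical monocytes in each library (WT in blue, ERG CKO in red), as percent of all cells under 5 versions of the rule and, at right, as percent of classical and non-classical monocytes, with 95% Wilson intervals as lines for the rule as given and at right. ERG CKO libraries lie below both WT libraries at right (5.64% and 9.32% against 16.7% and 13.1%) and overlap with them under the rule as given.

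To ask which genes differed between the genotypes, counts of the members were summed per library and tested with edgeR's quasi-likelihood test. The sums held 149947 and 248050 UMIs in WT and 139327 and 125707 UMIs in ERG CKO. Of 2109 genes tested, 0 passed an adjusted p of 0.05 in either direction (0.00%), 86 (4.08%) had an unadjusted p under 0.05, of them 39 higher (1.85%) and 47 lower (2.23%), and DESeq2 called 1, Ctla2a (0.0474%). Counts simulated with the same depth, and with 1 common spread for all genes, gave calls for 46.6% of genes changed by 1 log2 unit. For genes changed by 2 the figure was 92.2%, with 5 false calls among unchanged genes. Real genes differ in spread, so these rates do not carry over to genes that vary more between libraries. The count of calls depended on single libraries. Without WT replicate 2, which held the most cells, 16 genes were called higher and 25 lower in ERG CKO (1.61% of those tested). Without ERG CKO replicate 1 the counts were 4 and 9 (0.482%), without ERG CKO replicate 2 they were 11 and 12 (0.852%), and without WT replicate 1 they were 0 and 0, where the lone library of a group was assumed to vary like the other group. Other settings called 0.346% of genes (no filter on low counts), 0.711% (replicate numbers as a block), 0.106% (strict rule) and 0.0276% (the 40 cells kept).

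The genes of smallest p with a positive log2 fold change are given as values that did not pass in the main fit. With the replicate numbers as a block, Ctla2a, Pf4 and Nrgn passed (edgeR adjusted p 1.36e-08, 8.34e-05 and 4.35e-05). Ctla2a, which encodes a cysteine protease inhibitor, was at 53.4 and 141 CPM in WT and 675 and 334 CPM in ERG CKO. Both ERG CKO libraries were higher, and the log2 fold change was 2.29 (SE 0.43, edgeR adjusted p = 0.192). Pf4 (platelet factor 4), a chemokine of platelet granules, was at 6.67 and 36.3 CPM against 222 and 103 CPM, and Nrgn (neurogranin), which platelets also contain, at 6.67 and 36.3 CPM against 287 and 79.6 CPM. Their log2 fold changes were 2.71 (SE 0.59) and 2.88 (SE 0.68), with edgeR adjusted p of 0.220 and 0.298. Both passed when WT replicate 2 (4.47 and 4.65) or ERG CKO replicate 2 (3.18 and 3.54) was left out.

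Further positive values did not pass in the main fit either, though Mt1, Pygl, Slpi and Camk2d passed with the replicate block. Mt1, the zinc- and copper-binding metallothionein 1, was at 187 and 161 CPM in WT and 380 and 668 CPM in ERG CKO, with no overlap and a log2 fold change of 1.60 (SE 0.31, edgeR adjusted p = 0.192). Pygl, the liver-type glycogen phosphorylase, was at 53.4 and 72.6 CPM against 230 and 199 CPM, a log2 fold change of 1.72 (SE 0.36, edgeR adjusted p = 0.220). Mt1 passed when WT replicate 2 (log2 fold change 1.51) or ERG CKO replicate 1 (1.96) was left out, and Pygl when WT replicate 2 (2.02) or ERG CKO replicate 2 (1.85) was. Trf (transferrin), Slpi (a secreted inhibitor of leukocyte proteases), Camk2d, Cd9 (a tetraspanin), Cd14 and Ccr1 had log2 fold changes of 0.57 to 1.76 with edgeR adjusted p of at least 0.690. Cd14 was at 2501 and 3092 CPM against 4723 and 3596 CPM, and Ccr1 at 46.7 and 133 CPM against 208 and 231 CPM. Several of these values rested on ERG CKO replicate 1. Leaving it out gave log2 fold changes of 0.32 for Slpi, 0.78 for Camk2d and 0.80 for Cd9, in place of 1.46, 1.76 and 1.63, whereas leaving out ERG CKO replicate 2 gave 2.10, 2.33 and 2.16, which passed. When WT replicate 2 was left out, Slpi (1.55), Cd14 (0.76) and Ccr1 (2.24) passed.

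Platelet markers moved with these values. The 5 platelet genes Pf4, Ppbp, Gp9, Itga2b and Gp1bb summed to 6.67 and 92.7 CPM in the WT libraries and 459 and 207 CPM in those labelled ERG CKO. At least 5 of their UMIs were found in 0 of 13 and 1 of 22 WT cells, and in 6 of 11 and 3 of 11 ERG CKO cells, or 0% and 4.55% against 54.5% and 27.3% (exact permutation p = 0.333, the smallest possible). The limit of 5 was chosen after the data were seen. After thinning to 1000 UMIs a platelet-marker UMI was left in 0% and 4.55% of the members in WT and 18.2% and 9.09% in ERG CKO. In T cells at least 5 such UMIs were found in 0.273% and 0.340% of the WT cells compared with 1.36% and 1.68% in ERG CKO, and in non-classical monocytes in 0% of 3 libraries and 1.09% of ERG CKO replicate 1, so the share in classical monocytes was above both in every library but WT replicate 1. Among cells with both monocyte marker sets these were 0 of 8 and 2 of 18 in WT against 2 of 10 and 2 of 9 in ERG CKO. Interstitial macrophages held 27.3% to 41.7% in all libraries, where Pf4, which tissue macrophages can also express, averaged 1269 CPM and Gp9, a subunit of the platelet receptor for von Willebrand factor, 2.83 CPM.

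The platelet-marker cells also carried the Ctla2a counts. In the 10 members with at least 5 platelet-marker UMIs, Ctla2a had 3 to 22 UMIs with a median of 12.5, and in the other 47 it had 0 to 9 with a median of 0. Their total UMIs ranged from 11134 to 16347, none was called a doublet, and their Lyz2 counts were 410 to 789. Over 14 alternatives the adjusted p of Ctla2a ran from 1.31e-10 to 0.997, and it passed when WT replicate 2 (log2 fold change 3.25) or either ERG CKO library (1.69 and 2.73) was left out. When these 10 cells were left out, the log2 fold change of Ctla2a was 0.64 (edgeR adjusted p = 0.997), while that of Mt1 was 1.45 and that of Pygl 1.39. T cells held Ctla2a at 226 to 320 CPM in all libraries.

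**Figure D3:**
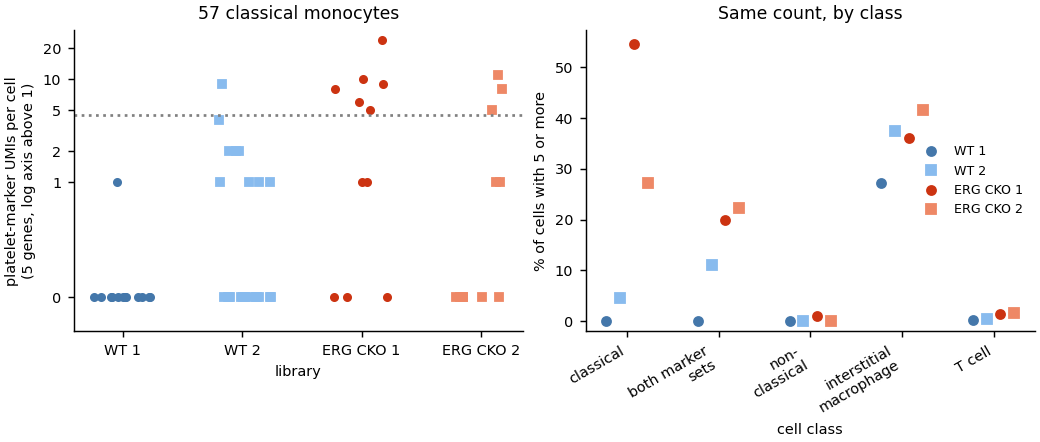
Left, UMIs of 5 platelet genes in each of the 57 classical monocytes by library (log axis above 1, dotted line just under 5 UMIs) and, right, percent of cells with at least 5 such UMIs in 5 classes and 4 libraries. Among classical monocytes the libraries labelled ERG CKO lie at 54.5% and 27.3% and the WT libraries at 0% and 4.55%.

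The genes of smallest p with a negative log2 fold change were of other kinds. None passed in the main fit, though Chil3, Cks2, Hpgd, Gsn and Scgb1a1 passed with the replicate block. Chil3 was at 1734 and 2435 CPM in WT and 538 and 1138 CPM in ERG CKO. The groups did not overlap, and the log2 fold change was -1.33 (SE 0.28, edgeR adjusted p = 0.220). Chil3 is also made in bulk by alveolar macrophages (a mean of 14501 CPM), and in T cells it stood at 108 and 109 CPM in WT and 17.1 and 17.2 CPM in ERG CKO. In cells with both marker sets it was at 565 and 2194 CPM against 330 and 353 CPM, and in non-classical monocytes at 97.2 and 170 CPM against 43.6 and 91.3 CPM. Over 15 alternatives the edgeR or DESeq2 adjusted p of Chil3 in classical monocytes was as low as 1.36e-08 and in all but 4 above 0.05, and it passed without WT replicate 2 (log2 fold change -1.02) and without ERG CKO replicate 2 (-1.93). In alveolar macrophages it was at 13469 and 14616 CPM against 13076 and 16841 CPM, and in interstitial macrophages at 9.81 and 45.3 CPM against 16.4 and 31.0 CPM, with overlap in both. Chil3 was thus also lower in ERG CKO in T cells, in cells with both marker sets and in non-classical monocytes, and not in macrophages; the part of these cells in the result was not tested.

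Cks2 (a subunit of cyclin-dependent kinases) was at 200 and 230 CPM in WT against 14.4 and 63.6 CPM in ERG CKO, with a log2 fold change of -2.49 (SE 0.49, edgeR adjusted p = 0.192). Hpgd, which inactivates prostaglandins, was at 307 and 157 CPM against 64.6 and 39.8 CPM, with a log2 fold change of -2.07 (SE 0.46, edgeR adjusted p = 0.229). Pou2f2, a lymphoid and monocyte transcription factor, was at 307 and 242 CPM against 108 and 159 CPM. These 3 genes were higher in non-classical than in classical monocytes (351, 483 and 1139 CPM on average), as was Cx3cr1, at 133 and 210 CPM against 43.1 and 111 CPM (log2 fold change -1.20, unadjusted p = 0.020, edgeR adjusted p = 0.999; this gene is given as a subset gene). When the 40 cells with Flt3, Cd3e, Cd79a or Cdh5 UMIs were kept, the log2 fold change of Cks2 was -0.58. With WT replicate 2 left out Cks2 (-2.34) and Hpgd (-2.49) passed, with ERG CKO replicate 2 left out Cks2 (-3.82), Hpgd (-1.75) and Cx3cr1 (-1.98) passed, and with ERG CKO replicate 1 left out Hpgd (-2.45) passed.

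Among the remaining negative values, Scgb1a1, a secretory protein of club cells, was at 113 and 101 CPM in WT and 28.7 and 7.96 CPM in ERG CKO. No member held more than 3 of its UMIs, and T cells held it at 59.3, 65.6 and 19.0 CPM in 3 libraries and at 7682 CPM in WT replicate 1. Gsn (gelsolin, which severs actin filaments) was at 1407 CPM in WT replicate 1 and at 122 to 181 CPM elsewhere, because 1 cell held 201 of its 289 UMIs, and its log2 fold change of -2.61 was -0.13 without the Scrublet doublet. It was -0.55 without WT replicate 1 and passed when any other library was left out (-3.46 to -2.56). Bcl2l11 (the pro-apoptotic protein BIM), Cdkn2d, Gm26917, Traf1, Hsp90ab1 and H2afz had log2 fold changes of -1.66 to -0.48, with edgeR adjusted p of at least 0.690. That of Traf1 ran from -2.21 without WT replicate 1 to -0.43 without WT replicate 2. Hsp90ab1, a cytosolic chaperone, was at 1347 and 1363 CPM against 940 and 986 CPM.

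**Figure D4:**
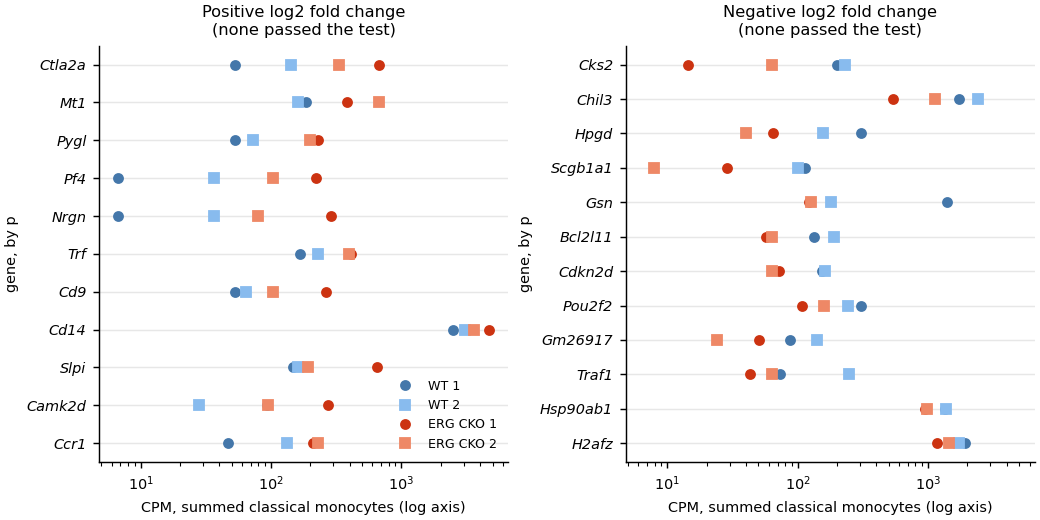
CPM of 11 genes with positive and 12 with negative log2 fold change, from those of smallest p, in the summed classical monocytes of each library (log axis; WT in blue, ERG CKO in red). Pf4 and Nrgn span 6.67 to 222 and 6.67 to 287 CPM, Hsp90ab1 spans 940 to 1363 CPM, and no gene passed the main test.

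The lists of monocyte functions were read against all genes tested, of which 341 (16.2%) had both ERG CKO libraries above both WT libraries and 359 (17.0%) had both below; the median log2 fold change was 0.00. Of the 20 lists, 20 had 0 members called in either direction. Of 16 classical monocyte genes, 3 lay above and 4 below, with a median log2 fold change of 0.04. Hp had an unadjusted p of 0.043 (554 and 883 CPM against 1306 and 875 CPM, groups overlapping, edgeR adjusted p = 0.999), and passed without WT replicate 2 (log2 fold change 1.01). Of the 6 tested non-classical genes, 0 lay above and 3 below (median -0.48). Of the 6 tested MHC class II genes, 0 lay above and 4 below (median -0.50), with smallest unadjusted p 0.060. H2-Ab1 itself overlapped, at 327 and 282 CPM against 287 and 263 CPM. In WT replicate 1 all 49 of its UMIs, and in WT replicate 2 31 of 70, came from 1 cell each with 2 of the 4 rule markers and no Ly6c2, at the edge of the rule. Cd74 had a log2 fold change of -0.11, and -2.41 under the strict rule, and neither passed. The strict rule left out such cells, but also ERG CKO cells with 57, 60 and 81 Cd74 UMIs, each with 1 non-classical marker. It kept a cell of WT replicate 2 with 103 Cd74 UMIs.

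Lists of metabolism and maturation lay on the other side. Of 6 tested genes of hypoxia and glycolysis, 4 lay above and 0 below (median 0.39), with Pkm (pyruvate kinase M) at 687 and 617 CPM against 883 and 819 CPM and Aldoa (aldolase A) at 387 and 355 CPM against 524 and 406 CPM. Of 8 tested macrophage maturation genes, 4 lay above and 0 below (median 0.22), though Apoe, the apolipoprotein, overlapped (2741 and 3149 CPM against 3115 and 3946 CPM), as did Lgals3 (galectin 3), at 2628 and 2713 CPM against 2648 and 2729 CPM. Of 12 tested NF-kB targets, 0 lay above and 4 below (median -0.23), and of 19 tested transcription factors 0 lay above and 4 below (median -0.13). None of the members named here passed the test.

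Interferon-stimulated genes (11 tested, 0 above and 2 below, median 0.04), adhesion genes (10 tested, 2 and 2, -0.05), pattern recognition receptors (13 tested, 2 and 1, 0.07), immediate early genes (13 tested, 1 and 2, -0.13), fibrogenic mediators (7 tested, 1 and 0, 0.04), coagulation genes (5 tested, 2 and 0, 0.19), chemoattractant receptors (5 tested, 1 and 1, 0.04) and iron-handling genes (5 tested, 0 and 0, -0.11) had medians within 0.2 of 0. The 8 tested chemokines and cytokines, of which 1 lay above and 0 below, had a median of 0.41. The neutrophil list had 3 genes tested (0 above and 1 below), the cell cycle list 1, and the list for monocyte-derived dendritic cells none.

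Genes that the study singled out in immune cells were taken as a list of 4. Ccl6, a CC chemokine, was at 974 and 1117 CPM in WT and 1443 and 1153 CPM in ERG CKO, with a log2 fold change of 0.31 (edgeR adjusted p = 0.999), which was -0.37 under the strict rule. Both ERG CKO libraries were higher, the second by little. S100a9 had 2, 0, 3 and 1 UMIs in WT replicates 1 and 2 and ERG CKO replicates 1 and 2. Igf1 (insulin-like growth factor 1) had 2 UMIs in WT replicate 1 and 0 elsewhere, and Mmp9 (gelatinase B) had 0 in all libraries, at a floor of 3 UMIs or 12.1 to 23.9 CPM. These 3 genes could not be compared at this depth.

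Whether a genotype difference was particular to classical monocytes was tested against non-classical monocytes of the same mice, as an interaction of class and genotype with the mouse as a block. Of 4903 genes, 2 (0.0408%) had an adjusted p of at most 0.05, Cxcl2 and Mgp. Cxcl2, a neutrophil-attracting chemokine, was at 607 and 1359 CPM in classical monocytes of WT and 3259 and 1082 CPM in those of ERG CKO, groups that overlap. In non-classical monocytes it was at 581 and 617 CPM in WT and 315 and 284 CPM in ERG CKO, groups that do not. The difference of the log2 fold changes was 2.10 (SE 0.37, edgeR adjusted p = 0.0325). The fit of non-classical monocytes alone called 1 of 6847 genes (0.0146%). Within classical monocytes alone the log2 fold change was 1.13 (edgeR adjusted p = 0.999), and within non-classical monocytes -1.05 (edgeR adjusted p = 0.067). Over 15 alternatives the value in classical monocytes ran from 0.13 to 3.46. The interaction rested in part on ERG CKO replicate 1, since without it the value was 1.27 (edgeR adjusted p = 0.0597), and it did not pass without the mouse block (2.18, adjusted p = 0.823), with Scrublet doublets left out (2.25, adjusted p = 0.112) or without the platelet-marker cells (2.31, adjusted p = 0.638). Cxcl2 was uneven over the members, with 0 UMIs in 27 cells and up to 155 in 1.

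Mgp (matrix Gla protein, made by fibroblasts and vascular cells) had 208, 0, 6 and 4 UMIs in the classical monocytes of WT replicates 1 and 2 and ERG CKO replicates 1 and 2, and all 208 came from the cell of WT replicate 1 that Scrublet called a doublet and that held 60 fibroblast-marker UMIs. The difference of log2 fold changes was -6.73 (SE 0.95, edgeR adjusted p = 0.00238), and 4.04 (edgeR adjusted p = 0.994) without doublets.

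The members were not uniform. H2-Ab1, an MHC class II chain that presents antigen, had 0 UMIs in 40 cells, and 6 cells with at least 15 UMIs held 83.3% of the class's 192. These 6 cells came from all 4 libraries (1, 2, 2 and 1) and had 57 to 140 UMIs of Cd74, the invariant chain, where the other 51 had at most 54. Their Lyz2 counts ran from 76 to 756 UMIs, against a median of 474 in the class. The cells with the most H2-Ab1, 1 of WT replicate 1 (49 UMIs) and 1 of WT replicate 2 (31 UMIs), had 250 and 76 Lyz2 UMIs, no Ly6c2 and only 2 of the 4 markers. Cd209a, a marker of monocyte-derived dendritic cells, was found in 6 members with 10 UMIs. After thinning, a UMI of H2-Ab1 was left in 7.69% and 9.09% of the members in WT and in 9.09% of them in each ERG CKO library, with T cells at 1.02% to 2.74%. Unthinned shares were 7.69% and 31.8% against 36.4% and 45.5%, with T cells at 6.28% to 11.96%.

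**Figure D5:**
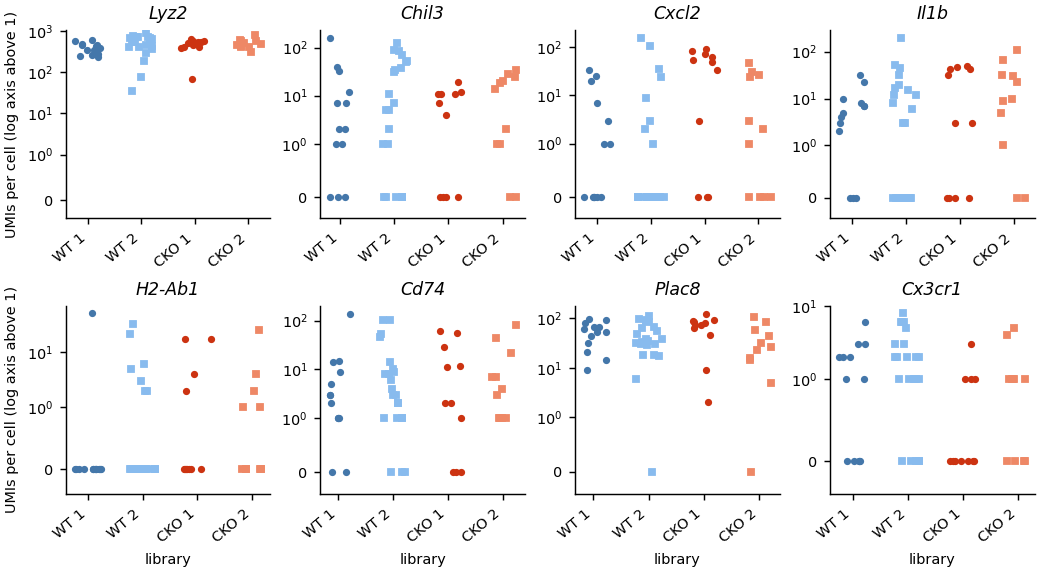
UMIs per cell of 8 genes in the 57 classical monocytes, by library (log axis above 1). Lyz2 is present in every cell with 35 to 898 UMIs, whereas H2-Ab1 is at 0 in 40 cells and Cxcl2 in 27.

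Other subset genes gave mixed pictures. A Cx3cr1 UMI was left after thinning in 23.1% and 18.2% of WT members and in none of the ERG CKO members (exact permutation p = 0.333, the smallest possible, and T cells at 0% to 2.05%), but without thinning the groups overlapped, at 61.5% and 77.3% against 36.4% and 63.6% (T cells at 2.52% to 9.52%). In each ERG CKO library 0 of 11 cells allows a share of up to 27.3%; this bound covers counting error only and limits cells with a UMI left at this depth, not cells that express the gene. Isg15, an interferon-induced ubiquitin-like protein, was left in 7.69% and 4.55% of WT members against 0% and 18.2%, with T cells at 2.52% to 5.80%. Cd209a was left in 1 cell, of WT replicate 2.

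Proliferation was confined to single cells. Mki67, a marker of cycling cells, had 28 UMIs in 1 cell of WT replicate 1 and 1 UMI in each of 2 further cells, and the first cell also had 22 UMIs of Top2a (topoisomerase IIα), 157 UMIs of Chil3 and, with 21964 UMIs, the highest depth of all members. Without that cell the log2 fold change of Chil3 was -0.99. Chil3 itself ranged from 0 UMIs in 15 cells to that maximum, with a median of 7. Il1b, which encodes interleukin 1β, had 0 UMIs in 18 cells and up to 193 in 1 cell, and Ccl4 had 65 of its 103 UMIs in 1 cell.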

How the data were processed

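Per the labels and the study's methods, single-cell libraries were made from dissociated whole lungs with the 10x Genomics GemCode platform and sequenced on a NextSeq 500. The submitters' processing notes name Cell Ranger 3.1.0 and mm10. The authors deposited UMI counts of each gene symbol in each cell (20076 rows, 9363 cells), without normalization, and no cell annotation was used. Library totals were 11263911 to 18646776 UMIs, and median depth was 4611 to 4899 UMIs per cell. Replicates of a group differed by more than sampling noise (chi-square per degree of freedom 2.35 in WT and 1.90 in ERG CKO over the summed members).

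Members were found by the rule given in the report, and the members and gene lists were chosen with earlier results of these data known. The UMIs of each library's members were added up, which makes the mouse the unit of replication, and tested with edgeR 4.0.16 in R 4.3.3 (TMM normalization, filterByExpr, quasi-likelihood test, Benjamini-Hochberg adjusted p of at most 0.05). DESeq2 1.42.0 was an alternative. SEs were taken as |log2 fold change|/√F. Levels are CPM of the summed UMIs; means over libraries weight libraries equally. T cells (a Cd3e UMI, none of Csf1r, Cd79a or Cdh5) served as background. Doublets were called by Scrublet in scanpy 1.11.5 per library (60 cells, 0.641%), were kept, and were left out as an alternative. Shares were compared with exact two-sided permutation tests over libraries. Thinning drew 1000 UMIs per cell. Genes named for the genotype comparison were the 12 of smallest p in each direction, since none was called, with the 2 members of highest mean CPM of each list, the subset genes and the genes of highest ratio to other classes; other named genes were chosen after their values were seen. Limits of 5 platelet-marker, 15 H2-Ab1 and 3 Mki67 or Top2a UMIs, the share among monocytes, and the fits that keep the 40 cells or leave out doublets from the interaction were chosen after the data were seen. The test was checked on simulated counts of 2109 genes with 200 changed. Alternatives were other cell rules, filters, depth, normalization, left-out replicates and a replicate block; sequences were not examined. Some genes that met the naming rule are not reported here.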

Additional observations from a re-analysis of the deposited data

Results flagged for a closer look

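Both results below were picked out because the genotype difference in classical monocytes differed from that in non-classical monocytes of the same mice by a test of the difference itself. For Cxcl2 the difference of log2 fold changes was 2.10 (SE 0.37, edgeR adjusted p = 0.0325), with 607 and 1359 CPM in WT and 3259 and 1082 CPM in ERG CKO classical monocytes; over 9 alternatives it ran from 1.27 to 2.76, and its adjusted p passed in 5 of them. For Mgp the difference was -6.73 (SE 0.95, edgeR adjusted p = 0.00238), and it rested on 1 cell of WT replicate 1 with 208 Mgp UMIs that Scrublet called a doublet, since without doublets the value was 4.04 (adjusted p = 0.994).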

How the results depend on the processing

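The share of all cells was lower in ERG CKO than in WT under every alternative run, from -0.549 to -0.0996 points when 1 library was left out. Counts of called genes started from 0 higher and 0 lower and moved to 13 and 25 with no filter on low counts, 1 and 0 with DESeq2 (Ctla2a), 1 and 0 under the strict rule (Cxcl2), 0 and 1 with Flt3, Cd3e, Cd79a or Cdh5 UMIs allowed (Igkc), and, without 1 library, 0 to 16 higher and 0 to 25 lower; they stayed at 0 and 0 with cells over 10% mitochondrial UMIs, doublets, cycling cells, platelet-marker cells or each gene's top cell left out, and after thinning. The cause of these shifts was not tested. The replicate numbers of the labels were tried as a replicate block, which called 10 genes higher and 5 lower, among them genes given above as not passing (adjusted p 4.88e-05 for Mt1, 1.36e-08 for Ctla2a and Chil3, 0.0073 for Pygl, 8.34e-05 for Pf4 and Cks2, 4.35e-05 for Nrgn, 0.000583 for Hpgd, 7.58e-09 for Gsn, 0.0325 for Scgb1a1, 0.0135 for Slpi, 0.0474 for Camk2d and 0.000282 for Cxcl2). Replicate 1 of both groups had Xist UMIs and replicate 2 Ddx3y UMIs, so by these genes the number went with the sex of the mouse. The labels give no sex, and the main fit did not account for it. Deviations from the group means correlated at 0.101 between the libraries of replicate 1. With 2 libraries per group, replicate 2 only mirrors this, so the value cannot decide whether to block. Both fits are therefore given. The blocked share difference was -0.324. The 2 interactions with non-classical monocytes became 12 with no filter, 0 without the mouse block, 0 without doublets, 0 without platelet-marker cells, 9 with the added cells and 8 to 18 without 1 library. Cd209a was 5.24 points higher unthinned where it was 2.27 points lower thinned, Isg15 ran from -6.12 to 12.1 points without 1 library, Traf1 was 0.21 with the added cells, and Mgp was 3.59 without WT replicate 1 and 4.04 without doublets. Without WT replicate 2 Mgp was -7.87. Ccl6 was -0.37 under the strict rule. Cd74 was 0.12 with each gene's top cell left out, 0.46 with the added cells, and between -0.23 and 0.045 without 1 library. Of 395 values of 29 genes compared by their fold change, 328 kept their direction and did not pass, 62 passed, and 5 changed sign. A further 29 genes that met the naming rule were taken by level alone, a choice made after the results were seen. None passed in the main comparison. Of their 416 values, 54, from 20 genes, had the other sign, and none of these 54 passed. Il1b aside, no fold change is given for them. Il1b had log2 fold changes of 0.67 in the main fit, -0.51 under the strict rule and 1.53 without WT replicate 2. It passed with the replicate block (0.79, edgeR adjusted p = 0.0103), and in no other alternative that kept all libraries. With 11 to 22 cells per library, a gene under 12.1 to 23.9 CPM could not be compared.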
